A study of Mus musculus with 39 samples.

Results

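Knockdown of tdTomato with crRNA 4 was compared with a non-targeting (NT) crRNA in N2a cells, a mouse neuroblastoma line, that stably express the red fluorescent protein tdTomato. The comparison rests on 6 of the 39 libraries of the series, 3 with crRNA 4 and 3 with NT, chosen by their labels and not by any measured value. Both groups carry the tdTomato transgene and both received plasmids for RfxCas13d, the RNA-guided RNase, together with a crRNA, so that the spacer of the crRNA is the labelled difference. RNA was collected 48 h after transfection. The 3 libraries of tdTomato crRNA 7, a second crRNA to the same transgene, share the NT libraries and entered the same fit. Another 30 libraries of wild-type N2a cells without the transgene were examined separately. Those cells received RfxCas13d with a crRNA to Sik3, Map2, Mapt or Rbfox3, or with NT. According to the study's methods, its stable lines were made with lentivirus. The labels do not say that the 3 replicates of a group were separate cultures, so the p-values given here measure the spread between these libraries, which may be technical.

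RfxCas13d processes a crRNA and is guided by its spacer to a complementary RNA, which it cuts with its HEPN nuclease domains. Once a target is bound, enzymes of the Cas13 family can also cut other RNAs in their vicinity, which is called collateral activity. Because tdTomato has no role in mouse cells, loss of its transcript is not itself thought to alter other genes, which makes it a useful target for reading what else changes.

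The spacers are shown because they are what sets the groups apart. They are written 5′ to 3′ as DNA, with no part singled out.
crRNA 4: aggagtcctgggtcacggtcac
NT: tcaccagaagcgtaccatactc
crRNA 7: gtcaccttcagcttggcggtct
Each spacer is 22 nt long, and 63.6% of the bases of crRNA 4 are G or C. The RNA stretch that would pair fully with crRNA 4 reads as follows.
full site of crRNA 4: gtgaccgtgacccaggactcct
None of the 141767 mouse transcripts searched (GENCODE, mm10) held this site with fewer than 4 mismatches.

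Levels are FPKM, the fragments counted on a gene scaled to the length of its exons and to the size of the library, as the authors calculated them. Fold changes are on the scale of log2(FPKM + 0.5), which understates the change of low genes. They come from a limma fit of the 9 tdTomato-line libraries, over 11852 genes with a mean of at least 1 FPKM, and p-values were adjusted by Benjamini-Hochberg over all of them. That mean ran over all 9 libraries, so a gene at 0 with NT could pass on its crRNA 4 values. H2ac1 and Mir7663, named below, were at 0 in all NT libraries. A gene rose or fell where the adjusted p was under 0.05, and changed where in addition the fold was at least 2. FPKM values carry no depth of their own, but the steps between values of very short genes gave estimates of 2776116 to 4300136 counted reads in the NT libraries and 3035615 to 3760506 in the crRNA 4 libraries. The library names fall into a series LDM, with replicate 1 of each group, and a series LDK, with replicates 2 and 3, and what these letters stand for is not given. The series stood apart: Rn45s, the ribosomal RNA precursor, was at 8484 FPKM in the LDM library of NT against 1063 and 1076 in the LDK libraries, and at 11743 against 2234 and 2724 with crRNA 4. A transgene-like row named Artactb, whose meaning is not given, was at 0 in all LDM libraries and at 82.1 to 105 FPKM in all LDK libraries of the line. The fit therefore has the series as a term, and differences within each series are given beside the main results. The markers of neuroblastoma summed to 1399 to 1900 FPKM with NT and 1755 to 2112 with crRNA 4, although Th and Hand1 were below 1 FPKM, and the markers of other cell types summed to 30.7 to 34.8 and 30.5 to 32.0.

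tdTomato, the target, was at 1071, 846 and 910 FPKM in the NT libraries and at 140, 160 and 163 FPKM in the crRNA 4 libraries. All 3 crRNA 4 libraries lay far below the lowest NT library. The mean fell from 942 ± 116 to 154 ± 12.6 FPKM (SD, n = 3 each), which is 16.4% of NT. The log2 fold change was -2.60 with a standard error of 0.107 and an adjusted p of 3.3e-06 (limma), and an exact 2-sided permutation test of the 6 values gave p = 0.1, the smallest that 3 against 3 allows. In LDM the remaining level was 13.1% of NT and in LDK it was 18.2% and 18.6%. By mean FPKM, tdTomato ranked 43 among all genes with NT and 515 with crRNA 4. These are bulk libraries, in which loss of the transcript from some of the cells and a lower level in every cell cannot be told apart. For its RT-qPCR knockdown assays the study sorted GFP-positive cells before RNA extraction, and whether the sequenced cells were sorted is not given. With crRNA 7 the values were 120, 146 and 148 FPKM, and crRNA 4 exceeded crRNA 7 by a log2 difference of 0.17 (95% interval -0.07 to 0.41, adjusted p = 0.536).

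**Figure D1:**
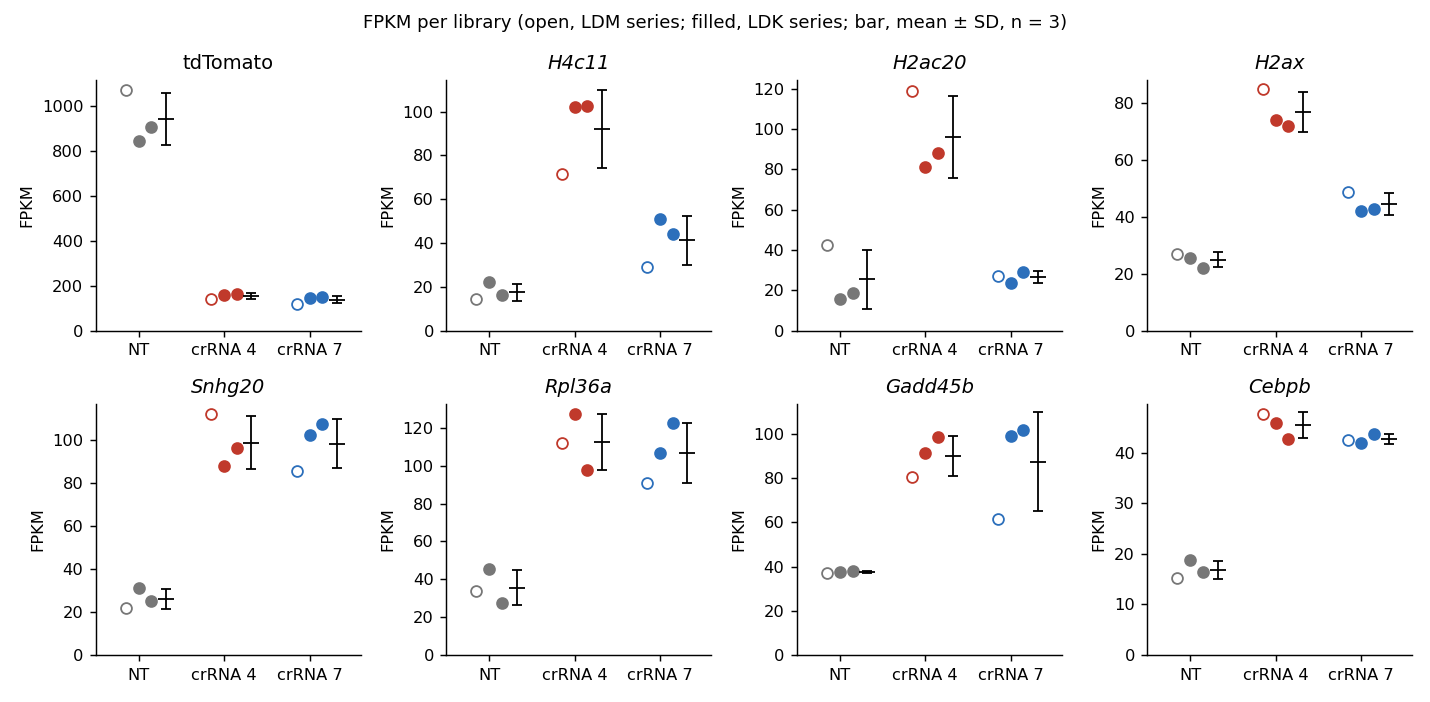
FPKM of tdTomato and 7 endogenous genes in each library of the tdTomato line, with NT in grey, crRNA 4 in red and crRNA 7 in blue; open points are LDM libraries, filled points are LDK libraries, and bars show the mean ± SD (n = 3). tdTomato fell to 154 FPKM with crRNA 4, while the 3 crRNA 4 libraries lay above the 3 NT libraries for each of the 7 other genes.

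Beyond the target, endogenous genes differed as well, and most of those that passed the fold criterion were higher. With crRNA 4, 146 genes changed upward (1.23% of 11852 tested) and 13 changed downward (0.11%), tdTomato included. Without the fold criterion, 766 genes rose (6.46%) and 507 fell (4.28%). The 3 crRNA 4 libraries lay above the 3 NT libraries in 1326 genes (11.2%) and below them in 1736 genes (14.6%). The median log2 fold change over all genes was -0.06. All 159 changed genes had the same sign in LDM and LDK, but they were selected in a fit of these same libraries, which favours such agreement. A test of whether the crRNA 4 effect differed between the series called 0 genes at an adjusted p under 0.05 in limma, and 1407 genes (11.9%) at an unadjusted p under 0.05. That test rests on 1 LDM library in each group, so it could not show that the series agree. With no difference at all, a share of 0.05 of the genes would reach an unadjusted p under 0.05, fewer than did. Fitted without the series term, the comparison of crRNA 4 with NT called 96 genes upward and 3 downward.

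**Figure D2:**
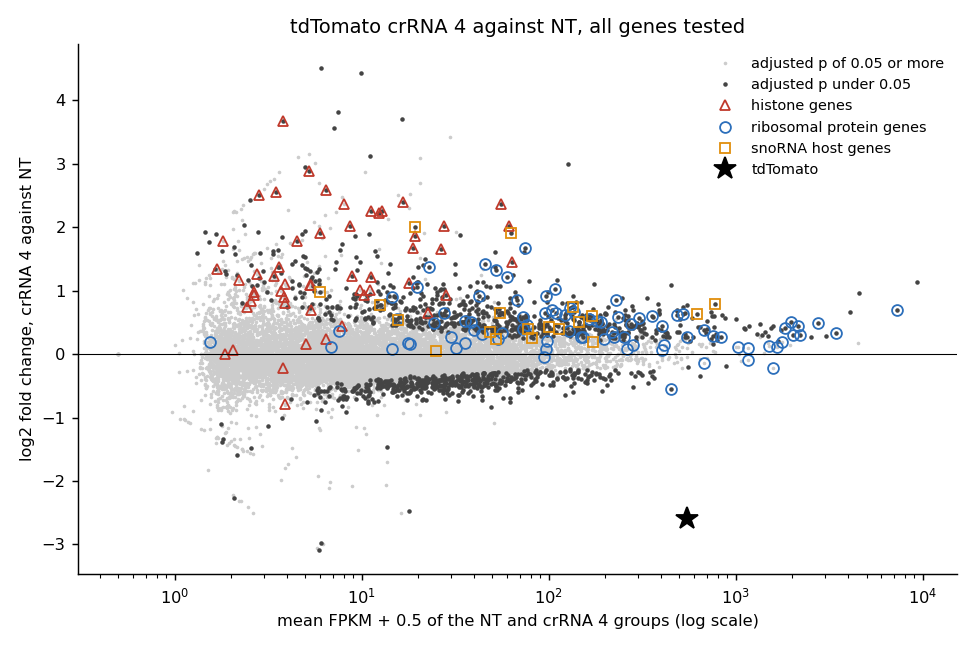
Log2 fold change of crRNA 4 against NT (vertical axis) for all 11852 genes tested, against the mean FPKM + 0.5 of both groups on a log axis; dark points have an adjusted p under 0.05, and histone genes, cytosolic ribosomal protein genes, snoRNA host genes and tdTomato have their own symbols. tdTomato, at -2.60, lies far below the other abundant transcripts, whereas the histone genes lie mostly above 0 at low to middle levels.

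The genes that rose were shorter than those that fell when no fold was required. Their median exon length was 1896 nt, against 6468 nt for those that fell and 4280 nt for all genes tested. Among the changed genes that rose, 37.2% had at most 1000 nt of exon, against 5.28% of all. The 12 changed genes that fell and had a length, 4 of the 13 being miRNA genes, were as short, with 41.7% at or below 1000 nt and medians of 1194 nt downward and 1455 nt upward. The median log2 fold change was 0.26 in 237 genes of up to 300 nt, many of them small RNAs, 0.66 in 108 genes of 300 to 600 nt, 0.37 in 278 genes of 600 to 1000 nt, 0.22 in 1305 genes of 1000 to 2000 nt, 0.04 in 3516 genes of 2000 to 4000 nt and -0.15 in 6350 genes over 4000 nt. The share of genes that rose was 7.59% up to 300 nt, 34.3% from 300 to 600 nt, 8.16% from 2000 to 4000 nt and 1.26% over 4000 nt. From 300 to 600 nt the medians of the 3 crRNA 4 libraries against NT of their series were 0.76, 0.51 and 0.67, while NT replicates 2 and 3 differed by a median of -0.01. Up to 300 nt these medians were 0, 0.22 and 0, so the shortest genes did not share the shift in every library. Exon length itself moved with the result, and its part was not tested. Removing a smooth trend with exon length, an alternative added after the data were seen, left 72 genes changed upward and 25 downward, and lists whose counts moved with it are also given with the trend removed.

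Genes made of a single exon stood out within the same length classes, a pattern that was chosen after the values had been seen. Leaving aside histones, small RNAs and predicted genes, 238 of 11387 genes tested had only single-exon transcripts in GENCODE. With crRNA 4, 86 of them rose (36.1%), 39 by at least 2-fold, and 1 fell. Of the 11000 genes with at least 1 transcript of more exons, 5.54% rose, 63 genes by at least 2-fold, and 4.5% fell. The median log2 fold change was 0.48 in the single-exon genes and -0.07 in the others, and the 3 crRNA 4 libraries gave 0.50, 0.51 and 0.52 one by one. Between NT replicates 2 and 3 the median difference of these genes was 0.01. From 1000 to 2000 nt the median was 0.72 in 74 single-exon genes and 0.20 in 1151 other genes, and from 2000 to 4000 nt it was 0.46 in 87 and 0.03 in 3349. Over 4000 nt it was 0.36 in 35 single-exon genes and -0.15 in 6251 others, whereas at or below 1000 nt the medians were 0.45 and 0.38. Among genes with more exons, 20.6% of 432 genes with 2 exons rose and 0.762% of 5379 genes with 10 or more. With the length trend removed, 52 single-exon genes rose and 8 fell, with a median of 0.37.

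Several of the single-exon genes encode small proteins of basic cell functions. Rpp25, a protein subunit of RNase P and RNase MRP, was at 35.1, 33.7 and 31.4 FPKM with NT and 81.0, 72.6 and 60.7 with crRNA 4. Imp3, a component of the small-subunit processome that matures ribosomal RNA, was at 24.4, 38.5 and 25.6 FPKM with NT and 66.7, 65.7 and 52.7 with crRNA 4. Eid1, an inhibitor of the acetyltransferase p300, was at 15.9, 28.3 and 29.4 FPKM with NT and 46.3, 58.4 and 47.6 with crRNA 4. The groups did not overlap for any of the 3 genes, and their log2 fold changes were 1.08, 1.07 and 1.08. Sdhaf1, an assembly factor of succinate dehydrogenase, rose from 10.8, 15.2 and 7.28 to 23.5, 22.5 and 30.8 FPKM. These genes were picked as examples after their values had been seen. DNA in a library would also give reads on genes that the cells do not express, and its part in the result was not tested. Among the 1132 olfactory receptor genes, which are mostly of this kind, 13, 13 and 17 were above 0 with NT and 19, 19 and 18 with crRNA 4. Every crRNA 4 library thus had more of them above 0 than any NT library. With crRNA 7 the counts were 9, 15 and 18, which overlapped those of NT, in libraries of 2200518 to 3351121 estimated reads. Reads on these genes summed to an estimated 55, 154 and 114 with NT and 79, 151 and 178 with crRNA 4, not scaled to library size.

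**Figure D3:**
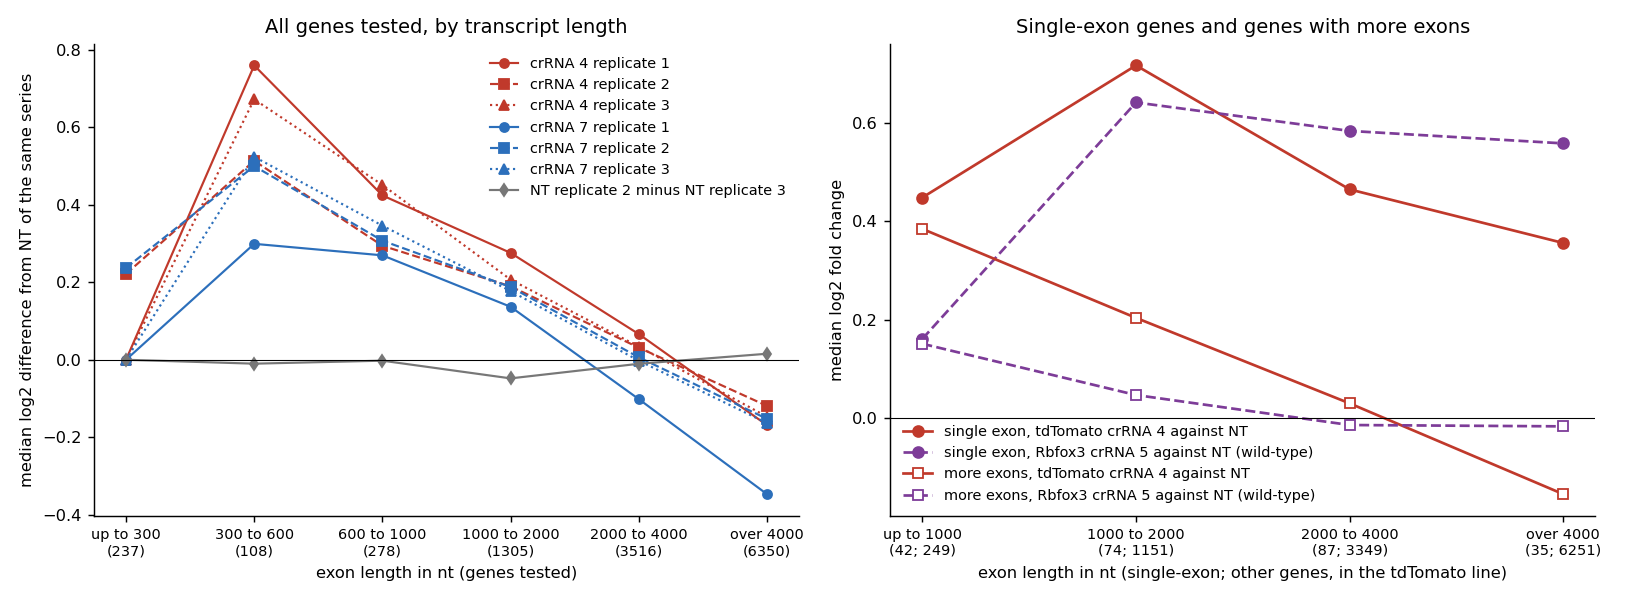
Left, median log2 difference of each targeting library from the NT libraries of its series by exon length class, with crRNA 4 in red, crRNA 7 in blue and the difference between NT replicates 2 and 3 in grey. Right, median log2 fold change of single-exon genes (filled) and of genes with more exons (open) by length, for tdTomato crRNA 4 and for Rbfox3 crRNA 5 in wild-type cells. From 300 to 2000 nt the medians of every targeting library were above 0, and from 1000 nt upward single-exon genes lay above the others, by 0.72 against 0.20 at 1000 to 2000 nt with crRNA 4.

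The replication-dependent histone genes package new DNA in S phase. Their mRNAs end in a stem-loop and normally carry no poly(A) tail, and most are short single-exon genes. Of 64 listed genes, 52 passed the minimum level, 25 rose (against 6.46% of all genes tested) and none fell (against 4.28%). By at least 2-fold, 24 rose (against 1.23% of all genes). Their median log2 fold change was 1.23, against -0.06 for all genes. The crRNA 4 libraries lay above all NT libraries in 34 (against 11.2% of all genes) and below them in 1 (against 14.6%). By family, 9 of 14 H2A genes, 8 of 14 H2B genes, 7 of 12 H4 genes, 1 of 5 H1 genes and 0 of 7 H3 genes rose, with medians of 2.12, 1.18, 1.41, 0.16 and 0.89. With the length trend removed 15 rose and 1 fell, with a median of 0.80. Fitted without crRNA 4 replicate 1 the count of risen genes was 15, without the series term it was 16, and at a minimum mean of 5 FPKM it was 19. Histone genes are near-identical copies of each other, so values of single genes are uncertain where reads could be shared out among copies.

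H4c11, which encodes histone H4 (mm10 chr13:21735034-21735456), was at 14.5, 21.99 and 16.1 FPKM with NT and at 71.6, 102 and 102 with crRNA 4. Every crRNA 4 library was more than 3 times the highest NT library, and an estimated 31, 73 and 53 reads stood against 168, 284 and 298. The log2 fold change was 2.36 with a standard error of 0.125 (adjusted p = 1.28e-05). H2ac20, an H2A gene of the smaller cluster on chromosome 3 (mm10 chr3:96220413-96220880), was at 42.3, 15.4 and 18.6 FPKM with NT and 119, 80.9 and 88.1 with crRNA 4. The LDM library was the highest of each group here, and the groups did not overlap (log2 fold change 2.02, standard error 0.216, adjusted p = 0.000602). H2ax, the variant whose phosphorylated form marks DNA breaks, has both a stem-loop and a polyadenylated transcript and was at 27.0, 25.7 and 22.1 FPKM with NT and 85.1, 74.0 and 71.8 with crRNA 4. The 3 values of each group lay close together, and H2ax gave a log2 fold change of 1.61 with a standard error of 0.0827 (adjusted p = 1.28e-05).

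Lower histone genes showed the same direction on fewer reads. H2ac13 was at 4.02, 3.63 and 4.19 FPKM with NT and 24.3, 21.1 and 17.2 with crRNA 4. H4c14 was at 17.8, 7.87 and 7.33 FPKM with NT and 51.5, 32.6 and 45.7 with crRNA 4, and H4c4 was at 8.06, 2.31 and 5.25 with NT and 21.3, 28.4 and 31.8 with crRNA 4. None of these groups overlapped. H2ac1, best known from the testis, was at 0 in the 3 NT libraries and at 2.76, 7.01 and 10.0 FPKM with crRNA 4, from an estimated 3, 10 and 15 reads. Against a floor of 3 reads over the NT group, H2ac1 was at least 10.2-fold higher with crRNA 4. The largest log2 fold changes also included H2ac12 at 2.89, Hist1h2bp at 2.59, H2ac7 at 2.56, H2bc9 at 2.52, H2ac11 at 2.25, H2ac4 at 2.23 and H2bc3 at 2.03.

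The genes of DNA replication and mitosis fell in shares of 6.67% and 3.57%, near the 4.28% of all genes tested, and none rose (against 6.46%). Of 30 genes of G1/S and DNA replication, 0 rose and 2 fell in limma (Gins1, -0.54; Mcm3, -0.25), with a median of -0.14. Of 28 genes of G2/M and mitosis, 0 rose and 1 fell (Bub1, a kinase of the spindle checkpoint, -0.35), with a median of -0.11. Without the series term 0 genes of either list fell in limma.

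The snoRNA host genes carry small nucleolar RNAs in their introns, and their spliced transcripts are mostly non-coding. Of 23 listed, 19 were tested, 12 rose (63.2%, against 6.46% of all genes) and 0 fell (against 4.28%), with a median log2 fold change of 0.54. Snhg20 was at 21.6, 31.0 and 25.0 FPKM with NT and 112, 87.7 and 96.2 with crRNA 4, a log2 fold change of 1.92. Snhg10 was at 5.45, 7.03 and 9.32 FPKM with NT and 28.0, 30.01 and 32.7 with crRNA 4, a log2 fold change of 2.01. In both genes the lowest crRNA 4 library was well above the highest NT library. Snhg1, among the most abundant of all genes that rose, was at 503, 607 and 584 FPKM with NT and 871, 991 and 1060 with crRNA 4 (0.79). Dancr rose by 0.98. With the length trend removed, 9 of the 19 rose, with a median of 0.41, and without the series term 5 rose.

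The cytosolic ribosomal protein genes, with short and abundant mRNAs, were mostly higher by small amounts. Of 84 tested of 87 listed, 49 rose (58.3%, against 6.46% of all genes) and 1 fell (against 4.28%), and the median log2 fold change was 0.38. Rpl36a was at 33.9, 45.7 and 27.4 FPKM with NT and 112, 128 and 97.9 with crRNA 4 (1.67). Rps28 was at 19.1, 24.7 and 29.0 FPKM with NT and 56.6, 74.5 and 65.8 with crRNA 4 (1.43), and Rps29 rose by 1.37. Rpl41, the smallest of them and one of the most abundant transcripts, was at 5067, 5568 and 6047 FPKM with NT and 8829, 8525 and 9701 with crRNA 4 (0.70). The groups of these genes did not overlap. Rps7 fell by 0.55 on the log2 scale (adjusted p = 0.0038). Fitted without crRNA 4 replicate 3 the count of risen genes was 31, without the series term it was 20, and with the length trend removed it was 25, with 4 fallen and a median of 0.23.

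The nuclear-coded respiratory chain genes, whose mRNAs are also short, were higher by still less. Of 87 tested of 90 listed, 36 rose (41.4%, against 6.46% of all genes) and 1 fell (against 4.28%), with a median of 0.30. Ndufa5, of complex I, rose by 0.89, and Uqcr11 and Uqcr10, small subunits of complex III, rose by 0.81 and 0.74. With the length trend removed, 15 rose and 1 fell, with a median of 0.11, and without the series term 11 rose. Of 78 mitochondrial ribosomal protein genes tested, 11 rose (Mrpl36, 1.14; Mrpl57, 1.00; Mrpl34, 0.91) and 2 fell, with a median of 0.06, but only 3 rose in the LDK libraries alone and 5 with the length trend removed. Other machinery of protein and RNA turnover gave calls in both directions, to be read against 6.46% risen and 4.28% fallen of all genes. Of 37 proteasome genes 4 rose and 3 fell, among them Psma5 (-0.75) and Psmd1 (-0.42). Of 47 translation factor genes 6 rose and 7 fell, Eif4ebp1, an inhibitor of cap-dependent translation, by 0.47 upward and Eif5 by 0.46 downward. Of 53 RNA decay genes 4 rose and 4 fell, Lsm7 with 1.03, Exosc6 of the exosome with 0.70 and Cnot2 of the deadenylase complex with -0.69, but none of the list rose in the LDK libraries alone and 1 rose with the length trend removed. Of 32 ribosome biogenesis genes 5 rose, among them Nop10 (0.89), a short protein of H/ACA snoRNPs, and Nop56 (0.63), and 2 fell.

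**Figure D4:**
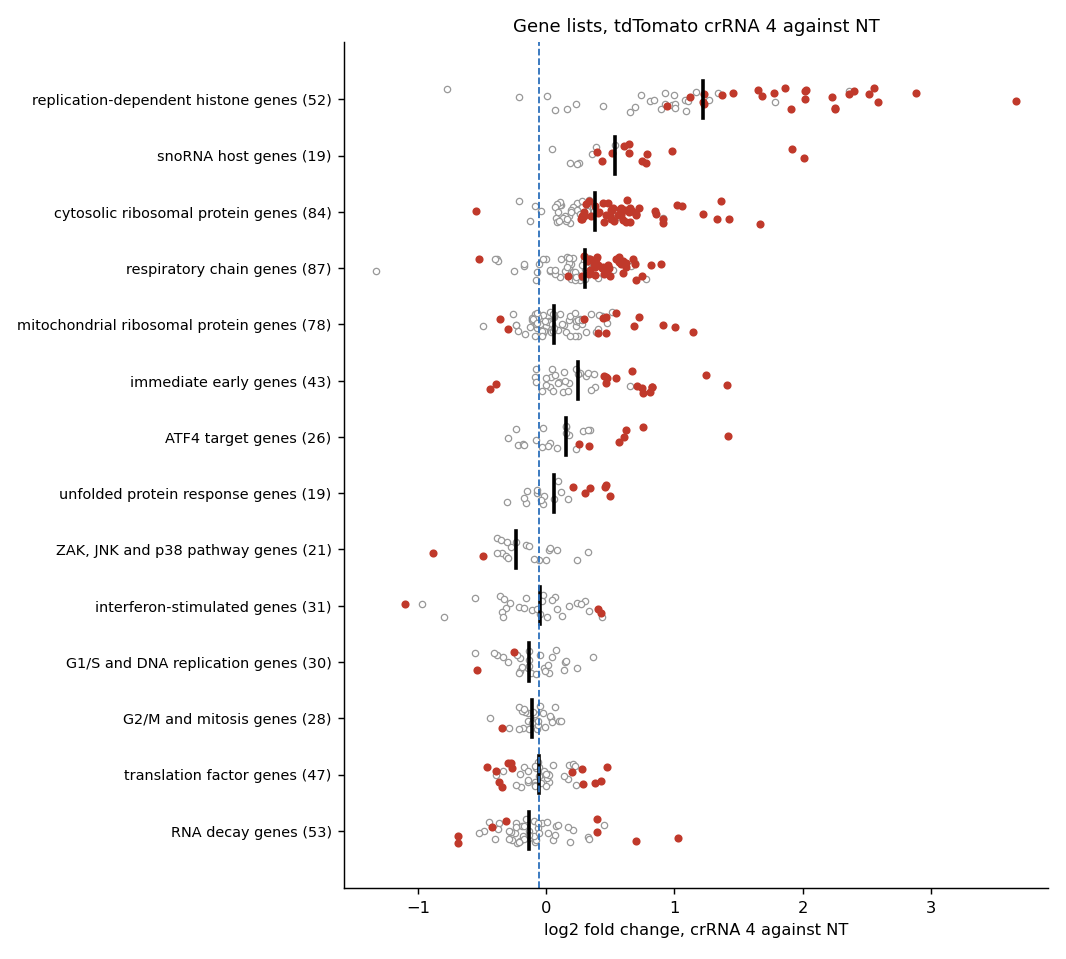
Log2 fold change of crRNA 4 against NT (horizontal axis) for each tested gene of 14 lists, with the number tested in brackets; filled points have an adjusted p under 0.05, black bars are list medians and the dashed line is the median of all genes, -0.06. The histone list lies farthest to the right, with a median of 1.23, and the list of ZAK, JNK and p38 genes lies to the left, at -0.23.

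Immediate early genes answer growth factors and stress within minutes, without new protein synthesis. Of 43 tested of 47 listed, 14 rose (32.6%, against 6.46% of all genes) and 2 fell (4.65%, against 4.28%), with a median log2 fold change of 0.24. Gadd45b, a stress sensor of the p38 and JNK pathways, was at 37.3, 37.7 and 37.8 FPKM with NT and 80.7, 91.5 and 98.7 with crRNA 4 (1.25, adjusted p = 0.000398). Ier5l was at 15.7, 8.95 and 9.03 FPKM with NT and 38.9, 26.8 and 24.9 with crRNA 4 (1.41). Junb, a subunit of the transcription factor AP-1, was at 47.6, 64.7 and 66.1 FPKM with NT and 76.1, 123 and 121 with crRNA 4 (0.82). In all 3 genes every crRNA 4 library exceeded every NT library. Fos, the partner of the JUN proteins in AP-1, was at 14.2, 25.6 and 22.8 FPKM with NT and 25.2, 45.8 and 40.1 with crRNA 4, which overlapped by a small margin because LDM was lower in both groups (0.81 in the fit, adjusted p = 0.00257). Gadd45a rose by 0.82, Arc by 0.75, Egr2 by 0.75, Ier5 by 0.70 and Ier2 by 0.67. Jun gave 0.35 (adjusted p = 0.055), Atf3 0.10 and Myc 0.05, which did not pass, while Csrnp1 and Klf6 fell by 0.44 and 0.39, calls that were lost whenever any 1 of the 6 libraries was left out. With the length trend removed 7 rose and 1 fell, with a median of 0.23, and without the series term 5 rose.

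The ZAK, JNK and p38 pathway carries ribotoxic stress to the nucleus. Of 21 tested genes, 0 rose and 2 fell in limma, against 6.46% and 4.28% of all genes, Mapkapk3 (-0.88) and Mapk14, which encodes p38α (-0.49). Their median was -0.23, and it was -0.08 with the length trend removed. Neither fall was called in the LDK libraries alone or without the series term. Map3k20, which encodes ZAK, gave -0.38 (adjusted p = 0.416).

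Among other stress programmes the largest single change was that of Cebpb, a transcription factor listed with the targets of ATF4. Cebpb was at 15.2, 18.7 and 16.4 FPKM with NT and 47.7, 45.9 and 42.7 with crRNA 4, nearly 3-fold higher with no overlap (1.42, adjusted p = 6.39e-05). Cebpb is itself a single-exon gene. Of 26 ATF4 targets tested 7 rose (26.9%, against 6.46% of all genes) and 0 fell (against 4.28%), with a median of 0.15. Ddit4, an inhibitor of mTORC1, rose by 0.75 and Stc2 by 0.62. Of 19 genes of the unfolded protein response, 6 rose (31.6%) and 0 fell, with a median of 0.06, Manf by 0.50, Sdf2l1 by 0.47 and Herpud1 by 0.45. Without the series term 3 ATF4 targets and 0 genes of the unfolded protein response rose. Of 14 heat shock protein genes 1 rose (Hspe1, 0.22), which is 7.14% of the list and near the share of all genes. Of 15 p53 targets 2 rose (13.3%), Perp by 0.57 and Phlda3 by 0.52.

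Interferon-stimulated genes gave calls at about the shares of all genes (6.46% risen, 4.28% fallen). Of 31 interferon-stimulated genes tested, B2m (0.42) and H2-K1 (0.41), both of MHC class I, rose, and Ifit1, which binds foreign RNA ends, fell from 1.91, 1.499 and 2.31 FPKM to 0.4995, 0.739 and 0.605 (-1.10, adjusted p = 0.0497). The list's median was -0.05. Of 15 NF-kB targets 2 rose, the chemokine gene Cxcl1 by 0.77 and Nfkbib by 0.60, with a median of 0.22. Of 24 cholesterol synthesis genes 0 rose and 1 fell in limma (Insig1, -0.44). Of 32 neuronal genes 8 rose, among them Vgf (0.64), Nefh (0.43) and Scg2 (0.42), and 3 fell, with a median of -0.04. Of 15 neuroblastoma markers 4 rose, Insm1 (0.87), Chga (0.27), Prph (0.26) and Chgb (0.26). These rises, 25.0% and 26.7% of their lists, dropped to between 2 and 4 neuronal genes and between 1 and 2 markers when 1 library was left out, and to 0 in limma without the series term. With the length trend removed 3 neuronal genes and 1 marker rose. Of 6 tested markers of other cell types none passed the adjusted p.

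Few endogenous genes fell by at least 2-fold. Beside tdTomato, 7 genes outside the predicted and small-RNA genes did so with no overlap between the groups, and they were low. Rhox3g, of a family of X-linked homeobox genes, was at 1.83, 1.58 and 5.57 FPKM with NT and 0.558, 0 and 0 with crRNA 4 (-2.27). Ly6g6c was at 3.75, 2.91 and 2.93 FPKM with NT and 1.03, 0.290 and 1.39 with crRNA 4 (-1.48, adjusted p = 0.0242). Ly96, the MD-2 partner of Toll-like receptor 4, gave -1.38, Rnf32 -1.34, Man1a, a mannosidase of the Golgi, -1.14 and Mtmr1, a phosphoinositide phosphatase, -1.05. Ifit1 completes the group. In the LDK libraries alone the adjusted p was above 0.05 for all of them but Rhox3g.

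Among the largest rises outside the histones were Rmrp, the RNA of RNase MRP, at 10.5, 0.846 and 0 FPKM with NT and 25.2, 12.2 and 14.5 with crRNA 4 (3.12), from an estimated 8, 1 and 0 reads against 21, 12 and 15. Nupr1l, a relative of the stress-induced nuclear protein Nupr1, was at 0, 0.517 and 0.261 FPKM with NT and 5.86, 3.71 and 1.77 with crRNA 4 (2.43). Both were low in every NT library except for Rmrp in LDM. Rises of at least 1.5-fold in highly abundant genes included Hint1, a nucleotide hydrolase (0.62), and Mif, a cytokine (0.66). Rn45s gave 0.96 but overlapped between the groups, since the LDM library of NT was higher than the LDK libraries of crRNA 4. Mir6236 was at 11079, 3708 and 3706 FPKM with NT and 19064, 9016 and 9584 with crRNA 4 (1.15), with the same split by series, and gave 0.39 (adjusted p = 0.397) with the length trend removed.

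Small RNAs sit in introns and exons of longer genes. Because the library kit selects mRNA and whether strand was used in counting is not given, reads on them cannot be told apart from reads of the host or of an overlapping gene. For those named here 1 read was worth about 1.5 to 6 FPKM. Of 95 box C/D, H/ACA and scaRNA genes tested 7 rose (7.37%, near the 6.46% of all genes) and 0 fell, with a median of 0.44 that became -0.31 with the length trend removed, when 3 rose and 5 fell. Snora78, within Snhg9, was at 0, 0 and 1.49 FPKM with NT and 8.39, 26.6 and 20.3 with crRNA 4 (4.43), Snora62, within Rpsa, gave 3.81, and Scarna10, within Ncapd2, gave 3.57. Of 130 miRNA genes 5 rose (3.85%) and 4 fell (3.08%), shares below those of all genes, with a median of 0.00 that became -0.83 with the length trend removed, when 2 rose and 8 fell. Mir7663, which overlaps Tbpl1, was at 0 in the NT libraries and at 10.8, 13.7 and 8.72 FPKM with crRNA 4, from only 2, 3 and 2 estimated reads, at least 2.55-fold higher against the floor. Mir7079, within Rpl13, gave 3.71, and Mir7036b, within Add1, was at 5.72, 7.38 and 14.9 FPKM with NT and 0, 4.42 and 0 with crRNA 4 (-3.09).

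A pair of small-RNA genes with more reads was chosen after the values had been seen. Snord104, a box C/D snoRNA (mm10 chr11:106500991-106501063), was at 29.6, 35.0 and 19.3 FPKM with NT and at 181, 217 and 277 with crRNA 4. An estimated 6, 11 and 6 reads stood against 40, 57 and 76, and the groups were far apart (log2 fold change 3.00, standard error 0.202, adjusted p = 5.32e-05). Mir7-1, a miR-7 gene within an intron of Hnrnpk, went the other way, from 30.02, 28.0 and 30.4 FPKM to 3.05, 5.16 and 7.39. That is 9, 13 and 14 estimated reads against 1, 2 and 3, with no overlap (-2.47, adjusted p = 0.00262). These libraries do not measure the mature miRNA.

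Transcripts that resemble the target site were examined next. With up to 5 mismatches in the 22 nt, crRNA 4 matched transcripts of 115 genes, of which 56 were tested. Of these, 1 rose (Zfp420, 0.85) and 2 fell (Rsbn1l, -0.52, and Tmem30a, -0.49), to be read against 6.46% and 4.28% of all genes. None was at 2-fold, and the median of the 56 was -0.12 against -0.06 for all genes. The closest matches had 4 mismatches, in 11 genes, of which 6 were expressed. Their sites are shown because they are the closest endogenous matches of this spacer, 5′ to 3′ along the transcript with the mismatched bases in capitals.
Agpat5: gtgaccCtCacccaggaAAcct
Nacc1: gtCCcAgtgCcccaggactcct
Peak1: gtgaccCtgaccAaggCcAcct
Scrn1: AtgaccAAgacccaggactTct
Tmem179b: CtgaccCGgacccaggGctcct
Ptgds: gtgaccTGgCcTcaggactcct
The site of Agpat5 (mm10 chr8:18884627-18884648, plus strand) and those of Nacc1 (chr8:84671706-84671727, minus strand) and Ptgds (chr2:25466810-25466831, minus strand) lie in the 3′ UTR. Those of Peak1 (chr9:56257647-56257668, minus strand) and Tmem179b (chr19:8773686-8774349, minus strand, across a splice junction) are coding, and that of Scrn1 (chr6:54554133-54554154, minus strand) lies in the 5′ UTR. No call was made in any of the 6. Agpat5, an acyltransferase of phospholipid synthesis, had 32.4 ± 5.37 FPKM with NT and 27.8 ± 3.01 with crRNA 4 (-0.21, adjusted p = 0.153). Ptgds, prostaglandin D synthase, had 1.84 ± 1.65 FPKM with NT and 0.561 ± 0.508 with crRNA 4 (-0.85, adjusted p = 0.288), with an SD close to the mean in each group. Peak1, a cytoskeletal pseudokinase, gave -0.05, Nacc1 -0.11, Scrn1 -0.22 and Tmem179b -0.25.

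crRNA 4 and crRNA 7 lowered the same transcript with different spacers, and the direct contrast between them asks which genes differ with the spacer. Only 5 genes were higher (0.0422%) and 1 lower (0.00844%) with crRNA 4 than with crRNA 7 at an adjusted p under 0.05. They were Mir7663, H4c11, H2ac20, H2ax, Camk2n2 and the predicted gene Gm6548, the last named after its values were seen. Mir7663 passed the minimum level only through its crRNA 4 values. H4c11 was at 29.0, 50.8 and 44.0 FPKM with crRNA 7, below every crRNA 4 library (log2 difference 1.17, 95% interval 0.89 to 1.44, adjusted p = 0.0109). H2ac20 was at 27.2, 23.6 and 29.3 FPKM with crRNA 7, within the range of NT (1.81, interval 1.33 to 2.29, adjusted p = 0.0216). H2ax was at 48.8, 41.9 and 42.9 FPKM with crRNA 7, between NT and crRNA 4 (0.78, interval 0.60 to 0.97, adjusted p = 0.0109). Camk2n2, an inhibitor of the kinase CaMKII, was at 12.1, 9.80 and 11.4 FPKM with NT and 21.1, 20.9 and 21.6 with crRNA 4. With crRNA 7 Camk2n2 was at 9.57, 9.78 and 12.05 FPKM (0.99, adjusted p = 0.0307). Within this line only the crRNA 4 libraries were high, but Camk2n2 also rose with other crRNAs in wild-type cells, as given below. Gm6548, which overlaps Eif2ak2, gave -0.54 (adjusted p = 0.0280). Mir7-1, at 46.3, 24.9 and 16.3 FPKM with crRNA 7, missed the threshold (-2.32, adjusted p = 0.0722).

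The differences themselves moved little when libraries were left out, but their calls did not hold. Without crRNA 4 replicate 2 the log2 differences of H4c11 and H2ac20 were 1.17 and 1.82, while the adjusted p of every one of them was above 0.05, at 0.0855 for H4c11 and H2ax and 0.130 for H2ac20. Mir7663 missed only there (0.0553) among the alternatives in which it was tested. Its crRNA 4 values rest on 2 or 3 reads a library. The log2 difference from crRNA 7 was 4.51, the same as from NT, so Mir7663 was undetected with either. Its steady call is therefore not a firm one. In the LDK libraries alone H2ac20 kept an adjusted p of 0.0285 while H4c11 (0.118), H2ax (0.0925) and Camk2n2 (0.191) did not. Without crRNA 4 replicates 1 or 3, or without crRNA 7 replicate 1, the 3 histone genes and Camk2n2 missed it as well.

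As a list, 46 of the 52 histone genes were higher with crRNA 4 than with crRNA 7, against 65.2% of all genes, and the crRNA 4 libraries lay above all crRNA 7 libraries in 21 of them (against 7.65% of all genes tested). The median difference was 0.94, against 0.08 for all genes, and it was 1.09 in the H2A genes, 0.56 in the H2B genes, 0.80 in the H3 genes and 1.21 in the H4 genes. The share of genes higher with crRNA 4 did not set the histones apart. It was 88.5% in the histones and ran from 35.7% (heat shock) to 89.3% (G2/M and mitosis) in the other lists. The median differences of the other lists lay between -0.05 and 0.18. Against the shared NT libraries, the medians of crRNA 4 and crRNA 7 were 1.23 and 0.57 for histones, 0.54 and 0.53 for snoRNA hosts, 0.38 and 0.49 for ribosomal proteins, 0.30 and 0.28 for the respiratory chain, 0.24 and 0.16 for immediate early genes and 0.48 and 0.51 for single-exon genes. Of the single-exon genes, none differed between the crRNAs at an adjusted p under 0.05 in limma, with a median difference of 0.03.

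**Figure D5:**
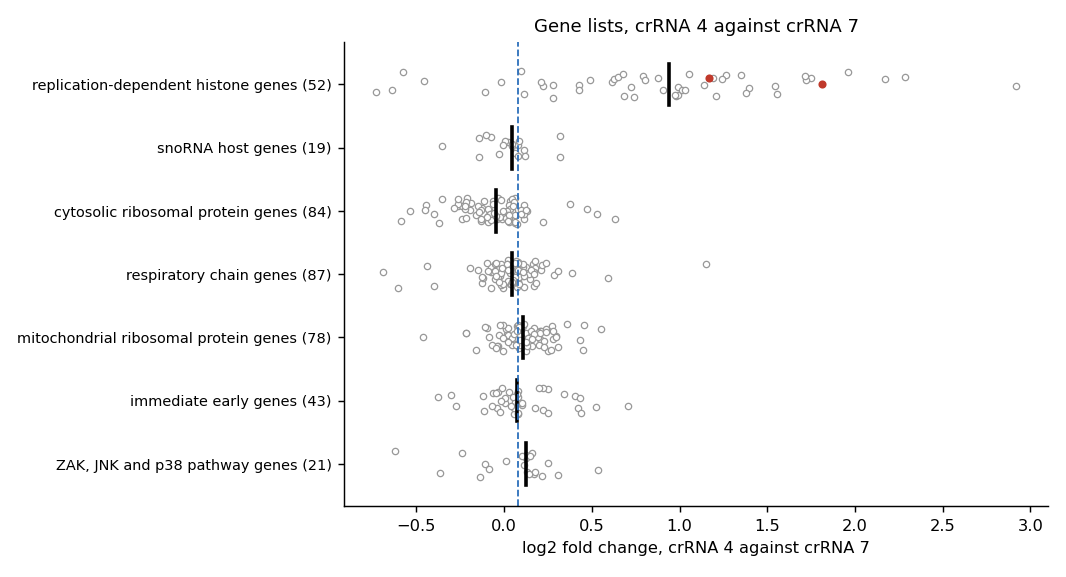
Log2 fold change of crRNA 4 against crRNA 7 (horizontal axis) for each tested gene of 7 lists, with the number tested in brackets; filled points have an adjusted p under 0.05, black bars are list medians and the dashed line is the median of all genes, 0.08. The histone list is shifted to a median of 0.94 with 2 genes past the threshold, and the other 6 medians lie close to the line.

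The genes that changed with crRNA 4 were then looked up in wild-type N2a cells, where endogenous genes were targeted and other libraries served as NT. Those library names fall into series LDK and LDL, and the series was again a term of the fit. Of the 146 genes that changed upward, 125 were tested there. With Rbfox3 crRNA 5 against its own NT libraries (n = 3 each), 93 of them rose (74.4%, against 12.6% of the 11553 genes tested) and 1 fell, with a median log2 fold change of 0.72. Another contrast took the mean of 7 other crRNAs, to Sik3, Map2, Mapt and Rbfox3, against the NT of their set. There 81 rose (64.8%, against 28.2% of all) and 5 fell (4%, against 21.7%), with a median of 0.44. H4c11 went from 3.62 ± 0.748 to 10.9 ± 1.98 FPKM with Rbfox3 crRNA 5 (1.47), Snord104 from 57.6 to 246 (2.08), Snhg10 from 6.37 to 18.7 (1.51), Snhg20 from 35.7 to 82.9 (1.22), Gadd45b from 60.5 to 114 (0.91) and Cebpb from 12.7 to 21.1 (0.72). H2ac20, in contrast, gave -0.33 there (adjusted p = 0.525). Camk2n2 rose by 0.37 with Rbfox3 crRNA 5 (limma, adjusted p = 0.029) and by 0.47 in the mean of the 7 crRNAs (adjusted p = 0.000183). In the mean of the 7 crRNAs the log2 fold changes were 1.22 for H4c11, 1.78 for Snord104, 1.19 for Snhg10, 0.37 for Snhg20 and 0.41 for Cebpb, while Gadd45b gave 0.06 (adjusted p = 0.326) and Fos, which rose by 0.31 with Rbfox3 crRNA 5, fell by 0.15.

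Of all genes tested there, 12.6% rose and 13.1% fell with Rbfox3 crRNA 5, and 28.2% rose and 21.7% fell in the mean of the 7 crRNAs. By list, 22 of 44 histone genes rose with Rbfox3 crRNA 5 and 30 in the mean of the 7 crRNAs, with 0 fallen in limma in either. For the ribosomal proteins 40 of 82 rose (49%) and 2 fell with Rbfox3 crRNA 5. In the mean of the 7, 21 rose (26%, below the share of all genes) and 24 fell (29%). For the immediate early genes 18 of 41 rose (44%) and 6 fell (15%), against 16 (39%) and 14 (34%). Of 186 single-exon genes tested, 136 rose with Rbfox3 crRNA 5 (73.1%) against 11.7% of 10438 genes with more exons, and 104 rose (55.9%) against 28.1% in the mean of the 7. The 13 genes that changed downward with crRNA 4, of which 8 were tested, included 1 that fell with Rbfox3 crRNA 5 and 4 that fell in the mean of the 7, Ly6g6c among them (-1.05 and -1.58).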

How the data were processed

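Total RNA was made into mRNA-seq libraries. As the labels and methods state, reads were trimmed with Trim Galore, aligned to mm10 with Subread and counted with featureCounts, and the authors deposited FPKM. For tool versions, annotation and strand, nothing is given in the sources used here. Groups came from the sample labels. Values were fitted as log2(FPKM + 0.5) with limma 3.58.1 (R 4.3.3), with a variance trend, group and library series, over the 9 tdTomato-line libraries. Reads were estimated from FPKM steps of small-RNA genes, where 92.5% to 96.2% of values were whole within 0.02 reads. On simulated data with 11522 genes for this contrast the fit called 72% of 2-fold, 92% of 4-fold and 0.0353% of unchanged genes. The simulated libraries had no series difference and a spread set in fixed proportion to the reads. These rates therefore need not hold for the real libraries. Replicates differed beyond counting noise and were kept apart. Named genes were the target, the 15 largest rises and 12 largest falls without overlap, 6 small-RNA genes, the 8 most abundant genes with a fold of at least 1.5, the 8 largest differences each way from crRNA 7 and 3 genes of each of 25 lists, with predicted and small-RNA genes passed over; immediate early, histone, ribosomal protein and ZAK, JNK and p38 genes could be named freely. Of the falls, 7 met the rule beside tdTomato. Members and lists were chosen with earlier results of these data known. Alternatives changed the pseudocount, the minimum level, scaling, the series term, the variance trend and the libraries used. A few single genes are not reported here.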

Additional observations from a re-analysis of the deposited data

How the results depend on the processing

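tdTomato kept its direction and call in each alternative, at -2.69 to -2.42 when any of the 6 libraries was left out. Leaving libraries out gave 117 to 141 changed genes, 110 to 134 upward and 5 to 11 downward, and 456 to 577 risen and 146 to 225 fallen without the fold. The fewer downward changes were 5 at a minimum of 5 FPKM, 5 at 20 estimated reads and 8 without a variance trend, which left 330 risen and 158 fallen genes. Without the series term 99 genes changed (96 and 3), and 219 rose and 37 fell. LDK alone gave 488 risen and 175 fallen genes. Removing the length trend left 97 changed genes (72 and 25), with 443 risen and 251 fallen. It reversed Mir682 (-0.14), Gm12338 (-0.061), Hspe1 (-0.0070), Rpl32l (-0.36) and Rps27l (-0.10). Against crRNA 7, the calls were 3 with no minimum, 13 at 20 reads, 1 without the series term, 1 without the variance trend, 7 changed in LDK alone, and 0 to 12 (0 to 9 changed) with a library left out. Same-numbered NT and crRNA 4 libraries deviated together with r of 0.231, 0.0775 and 0.0751. The highest r with another number was -0.125, 0.0962 and 0.0745. For crRNA 4 and crRNA 7 libraries r was 0.218, 0.106 and 0.0993, against -0.126, 0.0477 and 0.0389. These r do not settle whether the numbers pair the libraries, and the main fit took them as unpaired. A replicate block gave 140 genes upward and 11 downward, and 317 fallen without the fold. With the block in limma, Gm6548 was not called against crRNA 7 (adjusted p = 0.0596). The 2776116 to 4300136 estimated reads per library limit low genes, where few reads carry a value.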
